A study of Homo sapiens with 12 samples.

Results

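Contractile genes are described here in IMR90, a fibroblast line from normal human lung. The members were taken from a list of names: the muscle actins ACTA2, ACTG2 and ACTC1, the actin-binding proteins TAGLN and CNN1, the tropomyosins TPM1 and TPM2, the myosin chains MYL9 and MYH9, and the caveolar protein CAV1. All 10 were found among the 48162 gene IDs of the libraries. The list was set with earlier results of these data known. Setting the members' calls beside the share of all genes, as below, is therefore no independent test. RNA was sequenced in 12 libraries, 3 per group. Control cells carried the empty pBABE vector. RAS cells carried pBABE with the oncogene HRAS G12V, RAS/shDOT1L cells carried that vector and a pLKO.1 hairpin against DOT1L, and DOT1L OE cells carried wild-type DOT1L in another vector. DOT1L is the methyltransferase for lysine 79 of histone H3. The study asked whether it acts on the genes that senescent cells switch on, and called RAS cells senescent and DOT1L OE cells not senescent. All cells grew in 2% oxygen and were kept under a selecting drug, which was blasticidin (1 µg/mL for 4 days) for DOT1L OE and puromycin for the others. The drug and vector of DOT1L OE therefore cannot be told apart from DOT1L itself in comparisons with the other groups. Puromycin was taken as 3 µg/mL for 4 days, which the study's methods give for hairpin vectors. For pBABE vectors they give a lower dose for a longer time, so the regime of control and RAS was not settled here. The labels name no hairpin for control and RAS; the study also used a hairpin against GFP as a control in such cells, and whether these libraries carried it was not settled here.

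Fibroblasts that are activated, as in wound repair and fibrosis, take on a contractile form called the myofibroblast, and ACTA2 (α-smooth muscle actin) built into stress fibres is its usual marker. Actin filaments coated with tropomyosin and calponin-like proteins are pulled by non-muscle myosin II, whose motor is switched by phosphorylation of its light chains. Many genes of this apparatus are transcribed through serum response factor (SRF), which binds a DNA element called the CArG box together with its coactivators myocardin (MYOCD) and the MRTF proteins. Caveolae, small pits of the plasma membrane built from caveolins and cavins, are abundant in the same cells.

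Library totals ran from 16128055 to 19503457 counts. DOT1L stood at 31.7 ± 2.34 CPM (counts per 1000000 counts of a library, scaled by TMM factors, mean ± SD, n = 3 libraries here and below) in control, 83.8 ± 3.25 with RAS, 10.9 ± 0.644 with RAS/shDOT1L and 205 ± 9.13 with DOT1L OE. The RAS/shDOT1L libraries were lowest and the DOT1L OE libraries highest, as the labels state. HRAS, with transgene and endogenous transcripts in 1 count, was at 86.0 ± 2.83, 499 ± 8.29, 274 ± 12.8 and 80.4 ± 5.59 CPM in that order. HRAS in RAS/shDOT1L was thus 1.80-fold below its level in RAS (log2 fold change -0.85, or -0.44 with a GC offset, described below). The part of this difference in the results below was not tested. All 9 fibroblast markers (such as COL1A1, PDGFRA and THY1) had at least 1 CPM in every group, with a summed level of 19496 to 19715 CPM in control, 14544 to 14957 with RAS, 16084 to 16708 with RAS/shDOT1L and 15324 to 15972 with DOT1L OE.

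The members are named for smooth and cardiac muscle, and markers of muscle cells were looked up beside them. Of 8 markers of skeletal or cardiac muscle cells, MYOD1, MYOG, MYH7 and TNNI3 had 0 counts in all 12 libraries, and the summed level of the list was at most 10.4 CPM in any library. Of 6 markers of smooth muscle cells, 5 had at least 1 CPM in control, RAS and DOT1L OE, and all 6 in RAS/shDOT1L. MYH11, the smooth muscle myosin heavy chain, was at only 0.746 ± 0.102 CPM in control. The summed smooth muscle list ran from 361 to 369 CPM in control, 417 to 440.2 with RAS, 436 to 454 with RAS/shDOT1L and 288 to 315 with DOT1L OE, an order that differs from that of the members. SMTN made most of this sum, at 248, 379, 337 and 232 CPM on average in that order. LMOD1 (101, 30.2, 44.5 and 30.8 CPM), DES and SYNPO2 were highest in control, and MYH11 and MYOCD in RAS/shDOT1L. Pericyte markers summed to between 136 and 260.1 CPM over the 12 libraries, endothelial markers to between 25.6 and 149, epithelial markers to at most 4.27 and leukocyte markers to at most 3.54. TEK made most of the endothelial sum, at 67.1 CPM on average in control, 60.6 with RAS, 23.3 with RAS/shDOT1L and 131 with DOT1L OE. Fewer cells of a type and less RNA per cell cannot be told apart in such libraries.

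CArG boxes were searched in the 250 bases before the starts of the members, since SRF is the best known factor of these genes. RefSeq promoters on GRCh38.p14 were at hand for 8 of the 10 members, with 14 starts in all; TAGLN and MYL9 had no entry. A box was read as 10 bases with a fixed pair of bases at each end and 6 central bases that are A or T, a form that reads alike on both strands. In a relaxed reading that includes the strict one, 1 of the 6 central bases could deviate. The promoters of the muscle actins are shown because only they, of the 8 members, held a box; capitals mark the boxes.
ACTG2 chr2:73892758-73893007, plus strand: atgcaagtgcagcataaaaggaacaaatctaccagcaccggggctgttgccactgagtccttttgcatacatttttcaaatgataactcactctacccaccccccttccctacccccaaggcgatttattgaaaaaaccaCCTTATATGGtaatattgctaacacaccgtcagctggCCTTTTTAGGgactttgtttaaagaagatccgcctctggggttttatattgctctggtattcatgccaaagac
ACTA2 chr10:88952774-88953023, minus strand: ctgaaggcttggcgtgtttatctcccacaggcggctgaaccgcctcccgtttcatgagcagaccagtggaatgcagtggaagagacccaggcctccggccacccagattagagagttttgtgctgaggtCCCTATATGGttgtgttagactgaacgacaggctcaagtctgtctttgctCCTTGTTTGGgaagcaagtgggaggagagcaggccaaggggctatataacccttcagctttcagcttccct
ACTC1 chr15:34795550-34795799, minus strand: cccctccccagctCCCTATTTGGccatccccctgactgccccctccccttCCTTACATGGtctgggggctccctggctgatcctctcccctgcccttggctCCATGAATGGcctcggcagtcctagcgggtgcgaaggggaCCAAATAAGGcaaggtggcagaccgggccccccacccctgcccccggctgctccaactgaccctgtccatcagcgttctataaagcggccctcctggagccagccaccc
ACTG2 held 2 strict boxes, with first bases 110 and 73 bases before the start. ACTA2 held 2 boxes of the relaxed form, 121 and 71 bases before its downstream start, and none before its upstream start. ACTC1 held 4 boxes, of which the one 109 bases before the start was strict. Of all 35116 promoters in the table, 1.16% held a strict box and 7.04% a box of either form in a window of the same length. A match of letters is not a binding site, and these libraries hold no measure of binding.

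ACTA2 (ENSG00000107796; GRCh38 chromosome 10, 88935074 to 88991339, minus strand) was at 512, 553 and 539.9 CPM in the control libraries, 248, 249 and 271 in RAS, 656, 595 and 577 in RAS/shDOT1L, and 148, 157 and 154 in DOT1L OE. By CPM, each group's 3 libraries stood clear of every other group's, with RAS/shDOT1L highest and DOT1L OE lowest. With libraries scaled by their totals alone, ACTA2 was not called between RAS/shDOT1L and control (log2 fold change 0.09, adjusted p by edgeR = 0.098). ACTA2 was 2.07-fold lower in RAS than in control (log2 fold change -1.05 ± 0.04 SE, adjusted p = 3.31e-20). It was 2.41-fold higher in RAS/shDOT1L than in RAS (log2 fold change 1.27 ± 0.05 SE, adjusted p = 5.84e-20) and 3.53-fold lower in DOT1L OE than in control (log2 fold change -1.82 ± 0.05 SE, adjusted p = 3.20e-25). The antisense gene ACTA2-AS1, which shares 1638 exon bases with ACTA2, had 47 counts or fewer in every library, against at least 2745 for ACTA2. FAS, also on the opposite strand, shares 387 exon bases with ACTA2 and had 225 to 1133 counts per library. Reads of these genes could not be told apart from those of ACTA2 there, since the strand setting was not stated.

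ACTG2, γ-smooth muscle actin of the gut wall (ENSG00000163017; chromosome 2, 73892314 to 73919865, plus strand), was at 1323, 1335 and 1327.5 CPM in control, 523, 513 and 493 with RAS, 1657, 1568 and 1547 with RAS/shDOT1L, and 175, 182 and 187 with DOT1L OE. The groups stood in the same order as for ACTA2, again without overlap, and the fall in DOT1L OE was the largest of the members. ACTG2 was 7.40-fold lower there than in control (log2 fold change -2.89 ± 0.04 SE, adjusted p = 1.38e-31). It was 2.59-fold lower in RAS than in control (log2 fold change -1.37 ± 0.03 SE, adjusted p = 6.70e-27) and 3.16-fold higher in RAS/shDOT1L than in RAS (log2 fold change 1.66 ± 0.04 SE, adjusted p = 3.38e-26).

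ACTC1, the actin of heart muscle (ENSG00000159251; chromosome 15, 34790107 to 34795589, minus strand), went the other way. It had 6, 4 and 5 counts in control, 14, 12 and 3 in RAS, 0 in each RAS/shDOT1L library, and 263, 306 and 309 in DOT1L OE. The DOT1L OE libraries, at 14.2 to 14.7 CPM, stood far above all others, whereas RAS and control overlapped. From the summed counts of each group, the ACTC1 level in DOT1L OE was 55.7-fold that of control and 24.6-fold that of RAS, and at least 229-fold higher than that of RAS/shDOT1L, where 0 counts allow a level of up to 0.0632 CPM (3 counts over the group, counting error only). The edgeR fit gave a log2 change of 5.75 ± 0.27 SE against control (adjusted p = 1.87e-18). The gene passed the filter on low counts only through the DOT1L OE libraries, so among the genes tested it had to differ; in the comparisons of RAS, RAS/shDOT1L and control it was not tested. Even in DOT1L OE its level per length stayed below those of ACTA2 and ACTG2.

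**Figure D1:**
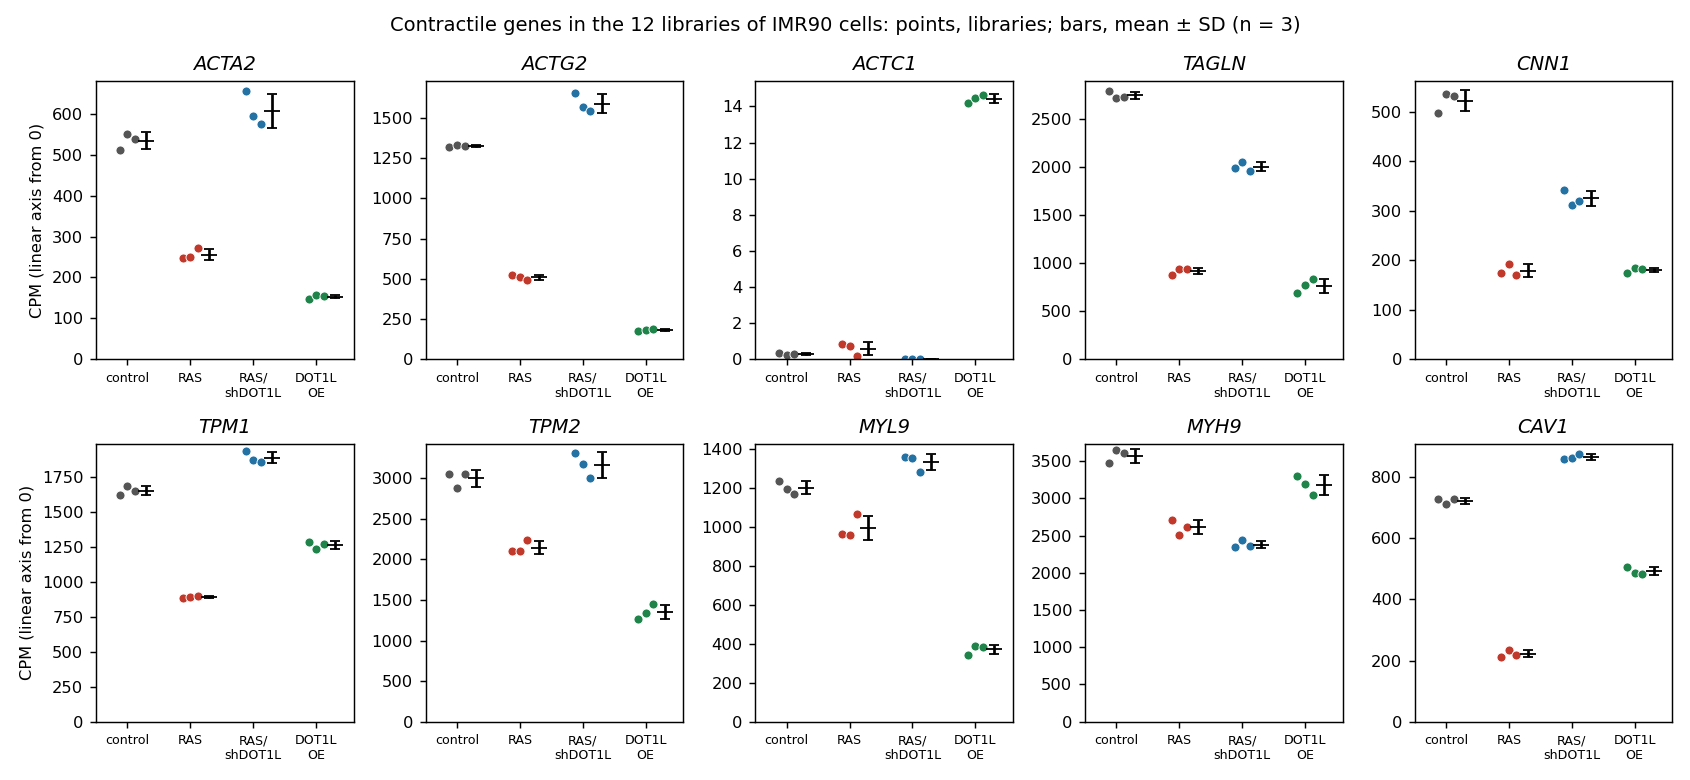
CPM on linear axes from 0 for each of the 10 genes, with each library as a point and a bar for the mean ± SD of each group of 3. ACTA2 and ACTG2 were lowest in DOT1L OE (153 and 181 CPM on average) and highest in RAS/shDOT1L (609 and 1591 CPM), while ACTC1 was at 14.4 CPM in DOT1L OE and under 1 CPM in every other library.

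Levels of the actins can be set beside each other only per length. Counts were divided by the length of each gene's merged exons and scaled to a total of 1000000 in each library (TPM), and each of the 6 human actin genes was taken as a share of their summed TPM. The muscle actins (ACTA2, ACTG2, ACTC1 and the skeletal ACTA1) made up 7.47% ± 0.130 of actin TPM in control, 3.44% ± 0.0165 with RAS, 7.60% ± 0.0301 with RAS/shDOT1L and 1.55% ± 0.0512 with DOT1L OE. These shares do not depend on how libraries are scaled to each other, though with other lengths per gene all of them were higher, in the same order. Most of the muscle share was ACTG2, at 5.87% in control, 2.56% with RAS, 6.03% with RAS/shDOT1L and 0.923% with DOT1L OE, with ACTA2 at 1.60%, 0.872%, 1.56% and 0.527%. Among the cytoplasmic actins, the share of ACTG1 was 28.2% ± 0.441 in control, 36.7% ± 0.0875 with RAS, 26.5% ± 0.663 with RAS/shDOT1L and 43.8% ± 0.324 with DOT1L OE, and that of ACTB ran from 54.6% in DOT1L OE to 65.9% in RAS/shDOT1L. In no case did the range of a group's ACTG1 shares overlap that of another group. As a level, ACTG1 rose 1.33-fold in DOT1L OE against control (log2 fold change 0.42 ± 0.03 SE, adjusted p = 2.68e-15). In RAS against control its log2 change of 0.20 turned to -0.08 with a GC offset, which takes each library's trend with the GC content of transcripts out of the fit.

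**Figure D2:**
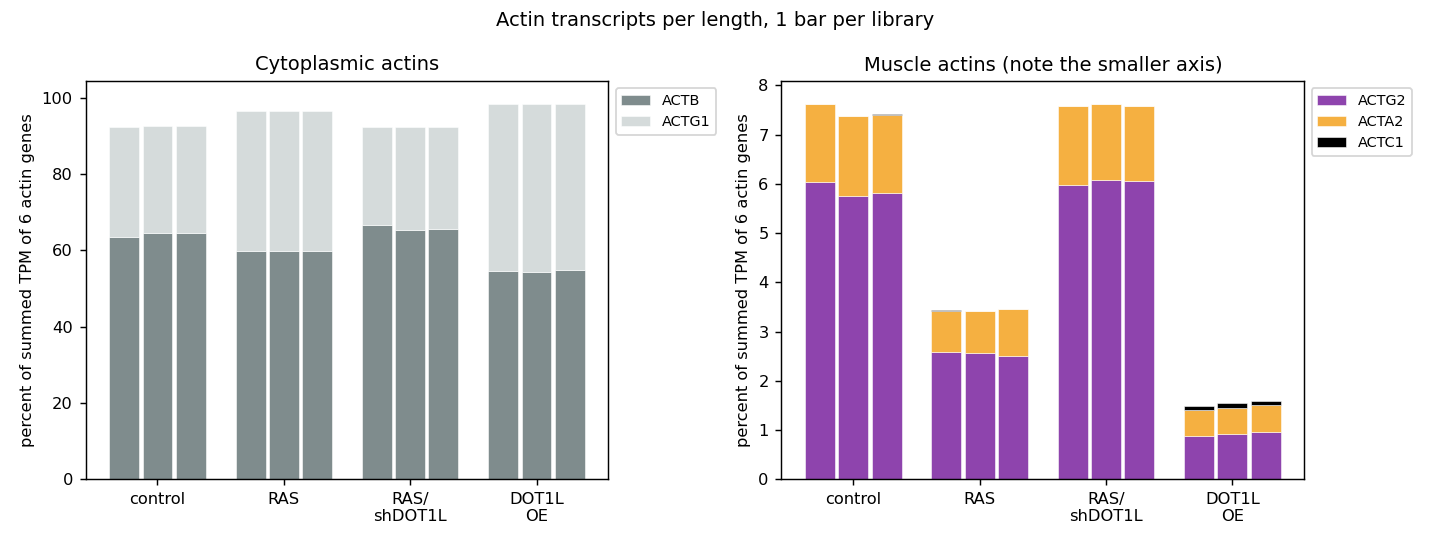
Share of each actin gene in the summed TPM of 6 actin genes (percent, stacked), with 1 bar per library, for the cytoplasmic actins (left) and the muscle actins (right, on a smaller axis; ACTA1, under 0.01%, is not drawn). Muscle actins stood at about 7.5% in control and RAS/shDOT1L, 3.44% in RAS and 1.55% in DOT1L OE, where ACTC1 forms the thin top segment.

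TAGLN, transgelin or SM22α, an actin-bundling protein (ENSG00000149591; chromosome 11, 117199370 to 117207464, plus strand), was at 2792, 2721 and 2734.5 CPM in control, 878, 936 and 938 with RAS, 1990.3, 2058 and 1964 with RAS/shDOT1L, and 683, 774 and 829 with DOT1L OE. Control was highest without overlap, so that RAS/shDOT1L stood between RAS and control. TAGLN was 2.97-fold lower in RAS than in control (log2 fold change -1.57 ± 0.03 SE, adjusted p = 7.45e-30), 2.21-fold higher in RAS/shDOT1L than in RAS (log2 fold change 1.14 ± 0.04 SE, adjusted p = 1.45e-22) and 3.64-fold lower in DOT1L OE than in control (log2 fold change -1.86 ± 0.05 SE, adjusted p = 6.80e-26). PCSK7 lies on the opposite strand and shares 2233 exon bases with TAGLN. Reads of this pair could likewise not be told apart there, and PCSK7 had 1605 to 3965 counts per library and TAGLN at least 12664. Of the 150-base windows of TAGLN's Ensembl canonical transcript, 81.9% also occurred, on either strand, in transcripts of PCSK7 or other genes. The next highest of the members was ACTA2, at 15.9%. How this sharing bears on the counts of TAGLN was not tested.

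CNN1, calponin, an inhibitor of the actin-activated myosin ATPase (ENSG00000130176; chromosome 19, 11538767 to 11550323, plus strand), was at 498, 537 and 533 CPM in control, 174, 193 and 170.2 with RAS, 343, 312 and 319 with RAS/shDOT1L, and 175, 183 and 182 with DOT1L OE. By CPM, RAS and DOT1L OE overlapped at the bottom and control was highest. CNN1 was 2.90-fold lower in RAS and 2.93-fold lower in DOT1L OE than in control (log2 fold changes -1.53 ± 0.05 and -1.55 ± 0.05 SE, adjusted p = 8.70e-24 and 1.58e-23), and 1.84-fold higher in RAS/shDOT1L than in RAS (log2 fold change 0.88 ± 0.06 SE, adjusted p = 9.12e-15). Between DOT1L OE and RAS its log2 difference of -0.01 ± 0.06 SE failed the test (adjusted p by edgeR = 0.841), but with a GC offset it was 0.37 and passed (adjusted p = 8.67e-06).

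The tropomyosins lie along the actin filament and govern which proteins reach it. TPM1 (ENSG00000140416; chromosome 15, 63042620 to 63071915, plus strand) was at 1621, 1682.5 and 1647 CPM in control, 884, 889 and 895 with RAS, 1933, 1869 and 1857 with RAS/shDOT1L, and 1287, 1232 and 1266 with DOT1L OE. It was lowest in RAS, not in DOT1L OE, and no groups overlapped. TPM1 was 1.84-fold lower in RAS than in control (log2 fold change -0.88 ± 0.03 SE, adjusted p = 8.08e-23), 2.15-fold higher in RAS/shDOT1L than in RAS (log2 fold change 1.10 ± 0.04 SE, adjusted p = 1.16e-22) and 1.32-fold lower in DOT1L OE than in control (log2 fold change -0.40 ± 0.03 SE, adjusted p = 7.78e-12). TPM2 (ENSG00000198467; chromosome 9, 35681992 to 35690056, minus strand) was at 3050.2, 2880.5 and 3056 CPM in control, 2096, 2103 and 2235 with RAS, 3312, 3177 and 2996 with RAS/shDOT1L, and 1269, 1339 and 1445 with DOT1L OE. For this tropomyosin DOT1L OE was lowest, and RAS/shDOT1L overlapped control. TPM2 was 1.39-fold lower in RAS than in control (log2 fold change -0.47 ± 0.03 SE, adjusted p = 7.27e-16), 1.49-fold higher in RAS/shDOT1L than in RAS (log2 fold change 0.58 ± 0.04 SE, adjusted p = 4.71e-15) and 2.24-fold lower in DOT1L OE than in control (log2 fold change -1.16 ± 0.04 SE, adjusted p = 3.07e-22). By TPM over merged exons, TPM2 was the highest of the 10 members in every group, from 1847 in DOT1L OE to 3835.5 in control.

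MYL9, the regulatory light chain of smooth muscle and non-muscle myosin II (ENSG00000101335; chromosome 20, 36541497 to 36551447, plus strand), was at 1237, 1197 and 1171 CPM in control, 962, 958 and 1067 with RAS, 1359.9, 1356 and 1284 with RAS/shDOT1L, and 343, 389 and 382 with DOT1L OE. The RAS libraries were only slightly below control, whereas all DOT1L OE libraries were far below. MYL9 was 1.20-fold lower in RAS (log2 fold change -0.26 ± 0.04 SE, adjusted p = 1.38e-07) and 3.27-fold lower in DOT1L OE (log2 fold change -1.71 ± 0.04 SE, adjusted p = 3.20e-25) than in control, and 1.36-fold higher in RAS/shDOT1L than in RAS (log2 fold change 0.44 ± 0.04 SE, adjusted p = 1.28e-10). Its transcript had the highest GC content of the members, at 60.2%, and with a GC offset its log2 change in RAS was -0.78.

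MYH9, the heavy chain of non-muscle myosin IIA (ENSG00000100345; chromosome 22, 36281280 to 36388010, minus strand), followed another order. It was at 3469, 3647 and 3603 CPM in control, 2706, 2511 and 2620.5 with RAS, 2342, 2434 and 2360.2 with RAS/shDOT1L, and 3301, 3195 and 3041 with DOT1L OE. Control was highest, DOT1L OE next, and RAS/shDOT1L lowest, without overlap. MYH9 was 1.36-fold lower in RAS than in control (log2 fold change -0.44 ± 0.03 SE, adjusted p = 9.07e-16) and 1.13-fold lower in DOT1L OE than in control (log2 fold change -0.18 ± 0.03 SE, adjusted p = 1.00e-05). Alone among the members tested, MYH9 was lower in RAS/shDOT1L than in RAS, by 1.09-fold (log2 fold change -0.12 ± 0.03 SE, adjusted p = 0.0042), a direction that turned when a GC offset was used (0.15 on the log2 scale, adjusted p = 0.000351).

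CAV1, caveolin-1, the main coat protein of caveolae (ENSG00000105974; chromosome 7, 116524994 to 116561179, plus strand), was at 727, 711 and 729 CPM in control, 212, 234 and 219 with RAS, 859, 861 and 875 with RAS/shDOT1L, and 506, 487 and 482 with DOT1L OE. As for TPM1, RAS was lowest, and the groups did not overlap. CAV1 had the largest fall in RAS and the largest rise with the hairpin of the members tested: it was 3.23-fold lower in RAS than in control (log2 fold change -1.69 ± 0.04 SE, adjusted p = 1.15e-26) and 3.95-fold higher in RAS/shDOT1L than in RAS (log2 fold change 1.98 ± 0.05 SE, adjusted p = 1.64e-26). With a GC offset its log2 change in RAS, -1.34, was smaller in size than those of ACTG2, TAGLN and CNN1, and its log2 change with the hairpin, 1.73, was below the 1.79 of ACTG2. In DOT1L OE it was 1.48-fold lower than in control (log2 fold change -0.57 ± 0.04 SE, adjusted p = 4.94e-14).

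Set side by side, RAS against control asked what the oncogene does to these genes. All 9 members tested were lower in RAS at an adjusted p under 0.05, with 32.0% of the 13554 genes tested called lower and 31.9% called higher. The median log2 change of the 9 was -1.05, against -0.04 over all genes. By glmTreat, which asks for a change of over 1.5-fold, 6 of the 9 were called (ACTA2, ACTG2, TAGLN, CNN1, TPM1 and CAV1), against 26.9% of all genes. With libraries scaled by their totals alone the median over all genes was -0.24, 3256 genes were called higher and 5573 lower in place of 4327 and 4343, and the 9 members were all still called lower.

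RAS/shDOT1L against RAS asked whether these levels depend on DOT1L in RAS cells. Of the 9 members tested, 8 were higher in RAS/shDOT1L and MYH9 was lower, where 26.3% of all genes were called higher and 26.4% lower. Past 1.5-fold stood 6 members, all of them higher (CAV1, ACTG2, ACTA2, TAGLN, TPM1 and CNN1), against 17.0% of all genes. The median log2 change was 1.10, against 0.03 over all genes. Since both comparisons use the RAS libraries, a shift of these 3 libraries alone would appear in both with opposite signs. The comparison of RAS/shDOT1L with control does not use them.

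In RAS/shDOT1L against control, ACTA2, ACTG2, TPM1, TPM2, MYL9 and CAV1 were higher (6 of 9 members tested, against 27.9% of all genes) and TAGLN, CNN1 and MYH9 were lower (3 of 9, against 27.6%). The 6 higher members differed little from control, by 0.09 (TPM2) to 0.28 (ACTG2 and CAV1) on the log2 scale, and TPM2 and MYL9 turned to -0.045 and -0.015 with a GC offset. Scaled by library size only, ACTA2, MYL9 and TPM2 were not called, at 0.087, 0.049 and -0.023. By TPM over merged exons, control was above RAS/shDOT1L for ACTA2 (387 and 369), TPM1 (458 and 438), TPM2 (3835.5 and 3385) and MYL9 (1744 and 1619). ACTG2 (1421 and 1423) and CAV1 (761 and 763) were nearly level. CNN1 was 1.59-fold lower (log2 fold change -0.67 ± 0.05 SE, adjusted p = 1.22e-12), MYH9 1.49-fold lower (log2 fold change -0.57 ± 0.03 SE, adjusted p = 5.82e-15) and TAGLN 1.36-fold lower (log2 fold change -0.44 ± 0.03 SE, adjusted p = 2.33e-12). By glmTreat 0 members were past 1.5-fold, against 19.1% of all genes, and 1 was at an unadjusted p under 0.05. CNN1 lay near the threshold (glmTreat adjusted p = 0.0586) and passed it without control replicate 1 or without RAS/shDOT1L replicate 1. With library size only, and also with a GC offset, 2 members were past 1.5-fold, CNN1 and MYH9, and the share of all genes was not taken there.

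DOT1L OE against control asked what DOT1L does without the oncogene. Leaving aside ACTC1, which was higher but had to differ, all 9 other members were lower, where 29.9% of all genes were called lower and 29.9% higher. Past 1.5-fold stood 6 of these 9 (ACTG2, TAGLN, ACTA2, MYL9, CNN1 and TPM2), against 20.8% of all genes. The median log2 change of the 9 was that of CNN1, -1.55, against 0.01 over all genes. The summed level of the 10 members was 15278 ± 56.7 CPM in control, 8727 ± 165 with RAS, 14154 ± 343 with RAS/shDOT1L and 7946 ± 41.1 with DOT1L OE. These sums rest on the TMM factors, which were 0.912, 0.915 and 0.911 in the RAS libraries and 1.09, 1.08 and 1.09 in DOT1L OE. Which of RAS and DOT1L OE stood lower thus depends on the scaling.

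**Figure D3:**
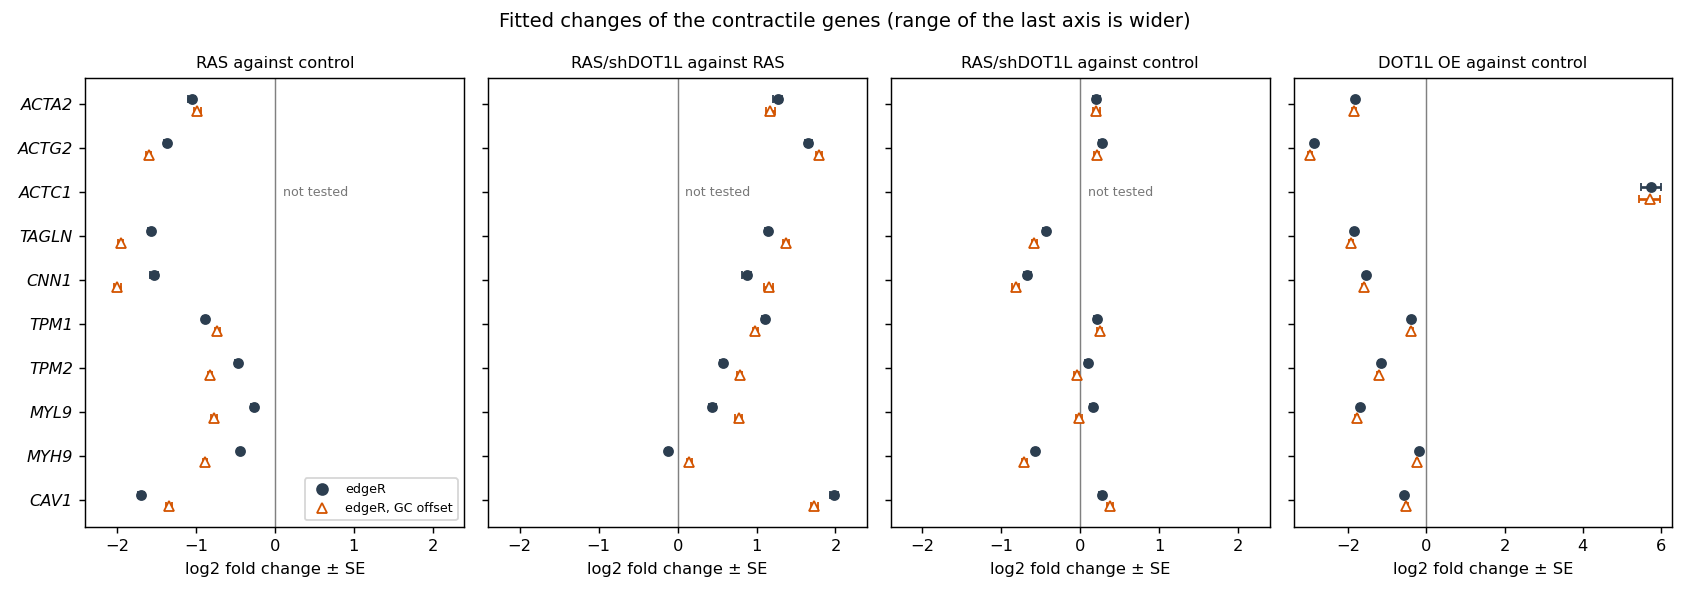
Log2 fold change ± SE of each gene in 4 comparisons, from edgeR (filled circles) and from edgeR with a GC offset (open triangles); ACTC1 was tested in DOT1L OE against control alone of these. Circles in RAS against control lay between -1.69 (CAV1) and -0.26 (MYL9), those in RAS/shDOT1L against control within 0.67 of 0, and ACTC1 in DOT1L OE stood at 5.75.

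Between DOT1L OE and RAS, 8 of the 9 members other than ACTC1 were called, against 65.6% of all genes. ACTG2, MYL9, ACTA2, TPM2 and TAGLN were lower in DOT1L OE, by -1.52, -1.45, -0.77, -0.69 and -0.29 on the log2 scale, although TAGLN turned to 0.037 with a GC offset. CAV1, TPM1 and MYH9 were higher in DOT1L OE by 1.13, 0.48 and 0.26. By TPM over merged exons, TAGLN (506 and 442) and CNN1 (277 and 199) were higher in DOT1L OE than in RAS. ACTG2, MYL9, ACTA2 and TPM2 were lower there by TPM as well. Between DOT1L OE and RAS/shDOT1L all 9 were called, against 64.6% of all genes, with 8 lower and MYH9 higher in DOT1L OE. ACTC1 passed the filter in both comparisons only through DOT1L OE and is not counted. In the order of the 4 levels by CPM, the neighbours that overlapped were RAS/shDOT1L and control for TPM2, DOT1L OE and RAS for CNN1, and RAS and control for ACTC1. How many of all genes had groups without overlap was not counted, so the lack of overlap does not set the members apart.

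A trend with the GC content of transcripts ran through the comparisons with RAS. The rank correlation (Spearman's rho) between log2 change and GC content across genes, which are not independent replicates, was 0.496 in RAS against control, -0.377 in RAS/shDOT1L against RAS, 0.205 in RAS/shDOT1L against control and 0.135 in DOT1L OE against control. The members' transcripts ranged in GC content from 42.6% (CAV1) to 60.2% (MYL9). A GC offset over 20 bins of GC content made the changes of the GC-rich members in RAS larger, to -2.00 for CNN1, -1.95 for TAGLN, -0.88 for MYH9, -0.83 for TPM2 and -0.78 for MYL9. Those of TPM1 and ACTA2, of lower GC content, became smaller in size, at -0.73 and -0.99. All 9 then passed 1.5-fold by glmTreat, for which the share of all genes was taken only in the fits without an offset. In DOT1L OE against control the offset moved each member's log2 change by less than 0.1.

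Other genes of the contractile apparatus, from lists set out by name, followed in part. Of all genes tested, 32.0% were called lower and 31.9% higher in RAS against control. The shares were 26.4% and 26.3% in RAS/shDOT1L against RAS, and 29.9% each in DOT1L OE against control. Some of the list counts below lie near these shares. Among 11 tested genes of the thin filament, 6 were lower and 4 higher in RAS than in control, with a median log2 change of -0.28. CALD1 (caldesmon) fell 3.01-fold, CNN3 3.25-fold and TPM4 1.76-fold (adjusted p by edgeR = 3.72e-29, 4.37e-25 and 7.96e-23). TAGLN3, a paralog of TAGLN best known in neurons, rose from 1.26 ± 0.642 to 103 ± 7.52 CPM (adjusted p by edgeR = 5.11e-27). In RAS/shDOT1L against RAS 7 were higher and 2 lower, with CALD1 3.00-fold and CNN3 3.12-fold higher (adjusted p by edgeR = 4.96e-26 and 3.12e-22). In DOT1L OE against control 2 were higher and 6 lower, with CALD1 3.18-fold and CNN2 1.93-fold lower (adjusted p by edgeR = 2.92e-27 and 5.29e-20). ACTG1 and TAGLN2 turned direction in RAS with a GC offset, as did SMTN in RAS/shDOT1L against RAS.

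In the list of myosin II, its kinase and phosphatase, and the RhoA-ROCK path, 10 of 15 genes tested were lower and 4 higher in RAS than in control, with a median log2 change of -0.63; of the higher ones MYL6B turned to lower with a GC offset. MYLK, the kinase that switches on myosin light chains, fell 2.57-fold, PPP1R12A, the targeting subunit of the opposing phosphatase, 2.73-fold, MYL12B, another regulatory light chain, 1.65-fold, and MYH10, non-muscle myosin IIB, 2.49-fold (adjusted p by edgeR = 1.65e-27, 3.71e-18, 3.38e-16 and 5.24e-16). In RAS/shDOT1L against RAS 11 were higher and 2 lower, with MYL6, an essential light chain, 1.61-fold and MYLK 1.58-fold higher (adjusted p by edgeR = 1.26e-14 and 1.45e-14). In DOT1L OE against control 11 were lower and 1 higher, with MYLK 1.92-fold and MYL12A 1.97-fold lower (adjusted p by edgeR = 1.10e-19 and 1.52e-14). MYH11 was at 0.746 CPM in control, 2.47 with RAS, 8.04 with RAS/shDOT1L and 0.617 with DOT1L OE, an order of its own at low counts.

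Most caveolar genes went the way of CAV1. Of 7 tested, 5 were lower in RAS than in control and the other 2 failed the test; with a GC offset all 7 were lower. CAVIN2 fell 6.94-fold, CAV2 2.49-fold, CAVIN1, which is needed to form caveolae, 1.59-fold, and CAVIN3 1.23-fold (adjusted p by edgeR = 1.83e-14, 1.75e-22, 2.38e-21 and 2.45e-07). In RAS/shDOT1L against RAS 5 were higher and CAVIN3 was lower (with a GC offset all 7 were higher), with CAV2 2.05-fold and CAVIN1 1.40-fold higher (adjusted p by edgeR = 1.12e-16 and 9.92e-14). In DOT1L OE against control 6 were lower and 1 higher, with CAV2 2.75-fold and CAVIN1 1.75-fold lower (adjusted p by edgeR = 2.47e-21 and 1.31e-20).

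A list of 20 genes known as targets of SRF and MRTF held mostly, but not only, genes of focal adhesions and stress fibres. Of these 20, 19 were lower in RAS than in control and ITGA5, an integrin subunit for fibronectin, rose 1.62-fold (adjusted p by edgeR = 1.37e-20). CCN1 fell 2.43-fold, ACTN4 (α-actinin 4) 1.91-fold and FLNC (filamin C) 1.85-fold (adjusted p by edgeR = 7.66e-24, 5.71e-22 and 3.97e-22). In RAS/shDOT1L against RAS 14 were higher and 5 lower, of which FLNA (filamin A) turned to higher with a GC offset. FLNC rose 2.41-fold there, whereas TLN1, talin, which links integrins to actin, fell 2.04-fold (adjusted p by edgeR = 2.45e-22 and 2.75e-20). In DOT1L OE against control 16 were lower and 4 higher, with CCN1 2.19-fold and ZYX (zyxin) 1.91-fold lower (adjusted p by edgeR = 2.80e-21 and 3.29e-20).

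The regulators themselves did not share one direction. SRF was at 167 ± 7.96 CPM in control, 153 ± 0.921 with RAS, 94.9 ± 4.98 with RAS/shDOT1L and 132 ± 6.20 with DOT1L OE. Its lowest libraries were thus those of RAS/shDOT1L, where most members were highest by CPM, though not by TPM over merged exons. In RAS against control the log2 change of SRF, -0.11, failed the test (adjusted p by edgeR = 0.0742), but it was called lower at -0.31 with library size only and at -0.64 with a GC offset. MYOCD was at 7.18 ± 0.393, 18.7 ± 2.48, 49.4 ± 4.94 and 34.6 ± 1.85 CPM, and rose 2.62-fold in RAS against control, 2.67-fold in RAS/shDOT1L against RAS and 4.76-fold in DOT1L OE against control (adjusted p by edgeR = 6.73e-09, 6.89e-12 and 4.62e-17). It was thus higher than in control both where members were low and where they were high. ELK1, which competes with MRTF proteins for SRF, rose 2.20-fold in RAS and fell 1.84-fold from RAS to RAS/shDOT1L (adjusted p by edgeR = 1.57e-16 and 5.60e-12). In all, of 7 genes of this list 2 were higher and 3 lower in RAS than in control, 1 and 2 in RAS/shDOT1L against RAS, and 3 and 2 in DOT1L OE against control.

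Of 19 cardiac sarcomere and hormone genes, only 4 had enough counts to be tested in RAS against control. TNNT2, cardiac troponin T, had 36, 41 and 61 counts in control, 0, 0 and 2 with RAS, 129, 168 and 135 with RAS/shDOT1L, and 0 in each DOT1L OE library. By summed counts it was at least 48.4-fold lower in DOT1L OE than in control, and 225-fold higher in RAS/shDOT1L than in RAS (exact 95% counting interval 61.8 to 1860.0). NPPB, the B-type natriuretic peptide, was at 2.10 ± 0.375 CPM in control, 0.182 ± 0.0591 with RAS, 5.91 ± 0.817 with RAS/shDOT1L and 0.395 ± 0.214 with DOT1L OE. Both genes were thus highest in RAS/shDOT1L and next in control, as ACTA2 was by CPM, but at far lower levels. TNNT2 and NPPB passed the filter on low counts in these comparisons only through the group where they were high, so among the genes tested they had to differ, and no calls of this list are counted. LDB3 had 74, 57 and 66 counts in control and 42, 5 and 25 in RAS, where the control libraries carried it past the filter.

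Matrix and TGF-β genes, the secretory side of the myofibroblast, gave 15 lower and 3 higher of 20 in RAS than in control. LOX, which cross-links collagen, fell 3.84-fold, COL3A1 1.90-fold and COL1A2 1.53-fold, while TGFB1, the cytokine that induces myofibroblasts, rose 2.64-fold (adjusted p by edgeR = 5.10e-29, 2.03e-21, 1.18e-21 and 2.79e-21). In RAS/shDOT1L against RAS 8 were higher and 6 lower of 19 tested, with LOX 3.08-fold higher and FN1 (fibronectin) 1.59-fold lower (adjusted p by edgeR = 4.71e-24 and 5.63e-18), and with a GC offset 6 were higher and 8 lower. In DOT1L OE against control 14 were lower and 5 higher of 20, with FN1 2.35-fold lower and TGFB1 3.29-fold higher (adjusted p by edgeR = 1.01e-24 and 1.62e-23). POSTN (periostin) of the same list was highest in RAS, unlike LOX, COL3A1 and COL1A2. It was at 12.7 ± 1.24 CPM in control, 39.9 ± 3.50 with RAS, 7.46 ± 2.48 with RAS/shDOT1L and 5.02 ± 0.392 with DOT1L OE.

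**Figure D4:**
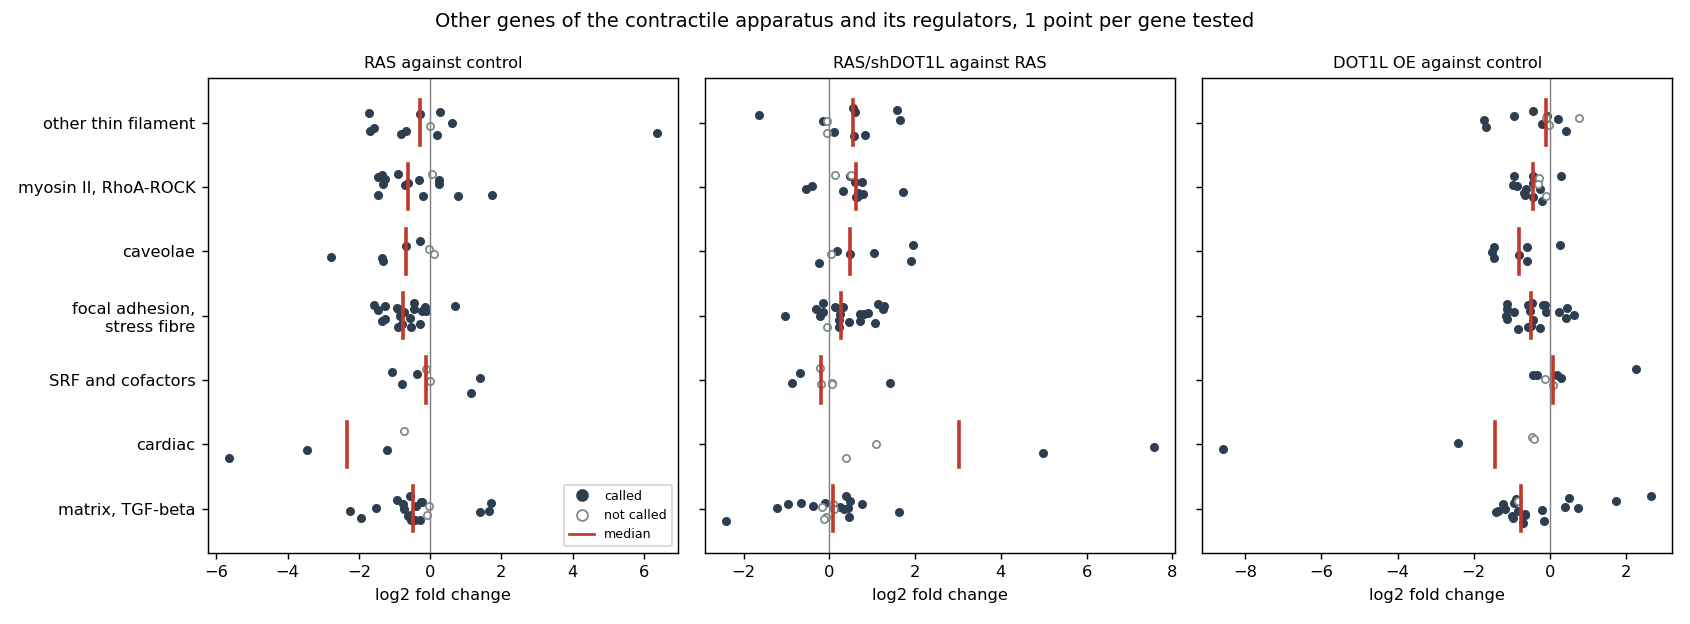
Log2 fold change of each gene tested in 7 lists of related genes for 3 comparisons, with filled points for genes at an edgeR adjusted p under 0.05, open points for the others and a bar at the median of each list. In RAS against control 19 of 20 genes of the focal adhesion and stress fibre list lay below 0, and TAGLN3 was the point furthest right at 6.37.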

How the data were processed

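RNA was sequenced from 12 libraries of IMR90 cells in 4 groups of 3, grouped by the labels. Per the study's methods, poly(A) RNA was primed with random hexamers and sequenced as paired ends. Reads were aligned by the authors with STAR to GRCh38, and raw counts of each Ensembl gene were deposited, whole and without normalization. STAR 2.6.1 and DESeq2 2 appear in the submitters' processing notes. The strand setting is not given in the sources used here. Libraries are called technical replicates in places and biological in others, so p-values cover only the spread of these libraries, possibly technical.

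Each pair of groups was fitted on its own 6 libraries with edgeR 4.0.16 in R 4.3.3 (filterByExpr, TMM factors, quasi-likelihood F test, two-sided), with Benjamini-Hochberg adjustment over all genes tested and a call at an adjusted p under 0.05. glmTreat tested for a change of over 1.5-fold. CPM used TMM factors over all 12 libraries, and totals of 16128055 to 19503457 counts set the precision. Where a group had 0 counts, a floor of 3 counts over the group was used. Symbols came from a table of gene names (45038 of 48162 IDs matched), and positions, exon lengths and GC content from GENCODE 44 on GRCh38.

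The 10 members, 7 gene lists and 7 marker lists were chosen with earlier results of these data known; 145 of 146 list entries had an ID. The text names all members and up to 4 genes per list with the smallest p in RAS against control. It also names up to 2 in each of 2 other comparisons, and the 5 genes most like ACTA2 and like ACTC1. SRF, MYH11, MYL6B, TAGLN2, SMTN, FLNA, POSTN and the actins outside the members were named after their values were seen. Alternatives were DESeq2 size factors, library size only, no filter beyond 1 count, a CPM filter (1 or more in 3 libraries), DESeq2 1.42.0 (Wald test), limma-voom (limma 3.58.1), 1 fit over all 4 groups, a replicate block, a GC offset, both together, each library left out in turn, and other gene lengths for shares. The fits were tested on simulated counts.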

Additional observations from a re-analysis of the deposited data

How the results depend on the processing

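Over 6 comparisons, the log2 changes of the members lost the call in 11 of 912 recomputed values and turned direction, with a call before or after, in 12. The turned values were those of MYH9 in RAS/shDOT1L against RAS (0.15 with a GC offset, with and without the replicate block), of TPM2 in RAS/shDOT1L against control (-0.023 with library size only, -0.045 with a GC offset, -0.046 with the block as well), of MYL9 there (-0.015 with a GC offset, with and without the block), of CNN1 in DOT1L OE against RAS (uncalled at -0.014, 0.26 with library size only, 0.37 with a GC offset, with and without the block) and of TAGLN there (0.037 with a GC offset and 0.034 with the block as well). With each library left out, this CNN1 value stayed uncalled on both sides of 0, from -0.053 to 0.043. The count of members past 1.5-fold in RAS/shDOT1L against control, 0 as reported, was 2 with library size only, 2 with a GC offset and 2 with that and the block (CNN1 and MYH9), 1 with no filter beyond 1 count (CNN1), 1 in the fit over all 4 groups (ACTC1, which is not tested in this pair alone), and 0 to 1 with each library left out. The cause was not tested, and shares of all genes past 1.5-fold were not taken in these settings.

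The share of muscle actins rose with the length used: for the longest transcript it was 8.21% in control, 3.82% with RAS, 8.33% with RAS/shDOT1L and 1.71% with DOT1L OE, and for the Ensembl canonical transcript, a choice made after seeing the data, 9.08%, 4.35%, 9.18% and 2.06%.

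Scaling by library size only made 36.9% of calls higher in RAS against control, 40.0% in RAS/shDOT1L against control, 67.9% in DOT1L OE against RAS and 61.8% in DOT1L OE against RAS/shDOT1L, where the TMM fits gave 49.9%, 50.3%, 50.7% and 50.2%. The medians over all genes were then -0.24, -0.13, 0.31 and 0.18.

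The replicate numbers gave no pairing common to all comparisons. Deviations of same-numbered libraries correlated at -0.0402 to 0.0413, and 11 of 36 times a library correlated best with its own number. Of these, 6 were in DOT1L OE against RAS, where all 6 libraries did, at correlations of 0.041, 0.012 and 0.041. Whether the libraries of that comparison were paired was not settled. With the replicate block 8435 genes were called in RAS against control (8670 without), and the only member to lose a call was TPM2 in RAS/shDOT1L against control (log2 change 0.09, adjusted p = 0.0572). Depth limits ACTC1 and TNNT2, whose counts were 14 or fewer and 2 or fewer in the RAS libraries.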

Other observations

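Outside the members, the genes with a mean of at least 10 CPM whose log2 CPM over the 12 libraries was most like that of ACTA2 were ANKRD1 (Pearson's r 0.992), MXRA7 (0.992), ARL1 (0.989), SPARC (0.988) and ASPH (0.986). These values describe libraries that fall into 4 groups and share depth and scaling, so no test is given. ANKRD1, a cardiac and stretch-responsive ankyrin repeat protein, was at 52.0 ± 3.48 CPM in control, 15.8 ± 2.26 with RAS, 68.4 ± 3.61 with RAS/shDOT1L and 5.11 ± 0.696 with DOT1L OE (mean ± SD, n = 3), the order seen for ACTA2. SPARC, a secreted matrix glycoprotein, was at 4696.5 ± 61.2, 2412 ± 56.8, 4431 ± 52.3 and 1685 ± 16.2 CPM.

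The genes most like ACTC1 were RNF26 (0.987), RFC2 (0.987), MXRA8 (0.984), EXOSC10 (0.984) and CCNG2 (0.983). MXRA8, a matrix remodelling-associated membrane protein, was at 372 ± 3.75 CPM in control, 403 ± 5.44 with RAS, 229 ± 5.71 with RAS/shDOT1L and 1055 ± 71.2 with DOT1L OE. RFC2, a subunit of the DNA clamp loader, was at 24.9 ± 1.02, 27.2 ± 2.52, 20.2 ± 1.76 and 51.2 ± 2.38 CPM.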
